A study of Mus musculus with 12 samples.

Results

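The 30 genes described here encode enzymes and carriers of fatty acid oxidation, and they were taken by symbol from a fixed list, each matching 1 of the 52550 gene IDs in the count table. Polyadenylated RNA was sequenced from brown adipose tissue (BAT) and inguinal white adipose tissue (WAT) of mice in 12 libraries, 3 in each of 4 groups. Mcu, which encodes the calcium channel of the mitochondrial inner membrane, was knocked out in the fat of the Mcu fl/fl AKO mice. The controls were Mcu fl/fl mice, so AKO and control animals alike carried the floxed gene, and all were on a high-fat diet by the series' design text. That text sets out to compare gene expression of AKO mice and controls in the 2 fats. Which Cre and which floxed exon were used, and the strain, age and sex of the animals, are not stated in the labels. Nor do they say whether a replicate was 1 animal or a pool, so the p-values reflect variation among these libraries, which may be technical.

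Fatty acids are burnt in mitochondria by beta-oxidation, a cycle that shortens an acyl-CoA chain by repeated oxidation, hydration, oxidation and thiolysis. Long chains enter the mitochondrion as carnitine esters, and the electrons of the first oxidation pass through the electron transfer flavoprotein to the respiratory chain. Peroxisomes run a parallel cycle on very long and branched chains. Brown fat is rich in mitochondria and oxidises fatty acids to make heat, whereas white fat mainly stores them. Many of these genes are targets of the nuclear receptor PPAR alpha.

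Levels below are the authors' FPKM divided by TMM factors over the 12 libraries, called normalised FPKM; they are per length of the authors' gene model. Differences are log2 fold changes of edgeR's quasi-likelihood test on the counts, and a gene was called where the Benjamini-Hochberg adjusted p over all genes tested was under 0.05. Total counts ran from 15692588 to 18967159 per library. Mcu itself measured 1.36, 2.1 and 1.19 normalised FPKM in BAT AKO, against 3.84, 4.15 and 3.46 in BAT control. In WAT it measured 1.46, 1.80 and 1.57 normalised FPKM in AKO, against 2.60, 2.70 and 2.71 in control. Every AKO library lay below every control library of its tissue, and the exact two-sided permutation p of 0.1 in each tissue is the smallest that 3 against 3 libraries allow. The tissue labels matched their markers, with brown adipocyte genes summing to between 6262 and 7819 CPM (counts scaled to a fixed library total) in BAT libraries and to between 82.3 and 117 in WAT libraries. Skeletal muscle genes took 2.07% of counts in BAT AKO 2, 2.65% in WAT AKO 2 and 1.5% in WAT control 1, against 0.388% or less elsewhere. B lymphocyte genes summed to between 733 and 1892 CPM in the WAT AKO libraries, against 32.4, 612 and 25.0 in WAT controls 1, 2 and 3. In bulk tissue, fewer cells of a type and less RNA per cell cannot be told apart.

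Summed over the list, these genes took up a larger part of the RNA of BAT than of WAT. They took between 2.22% and 2.62% of all counts in BAT AKO and between 2.34% and 2.53% in BAT control. In WAT they took between 0.453% and 0.461% in AKO and between 0.446% and 0.520% in control. The share in BAT was 5.27 times that in WAT for AKO mice and 5.23 times for control mice, from the group means. Between AKO and control the share did not differ beyond the spread in BAT (exact two-sided permutation p = 0.7) or in WAT (p = 1.0 by the same exact test).

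**Figure D1:**
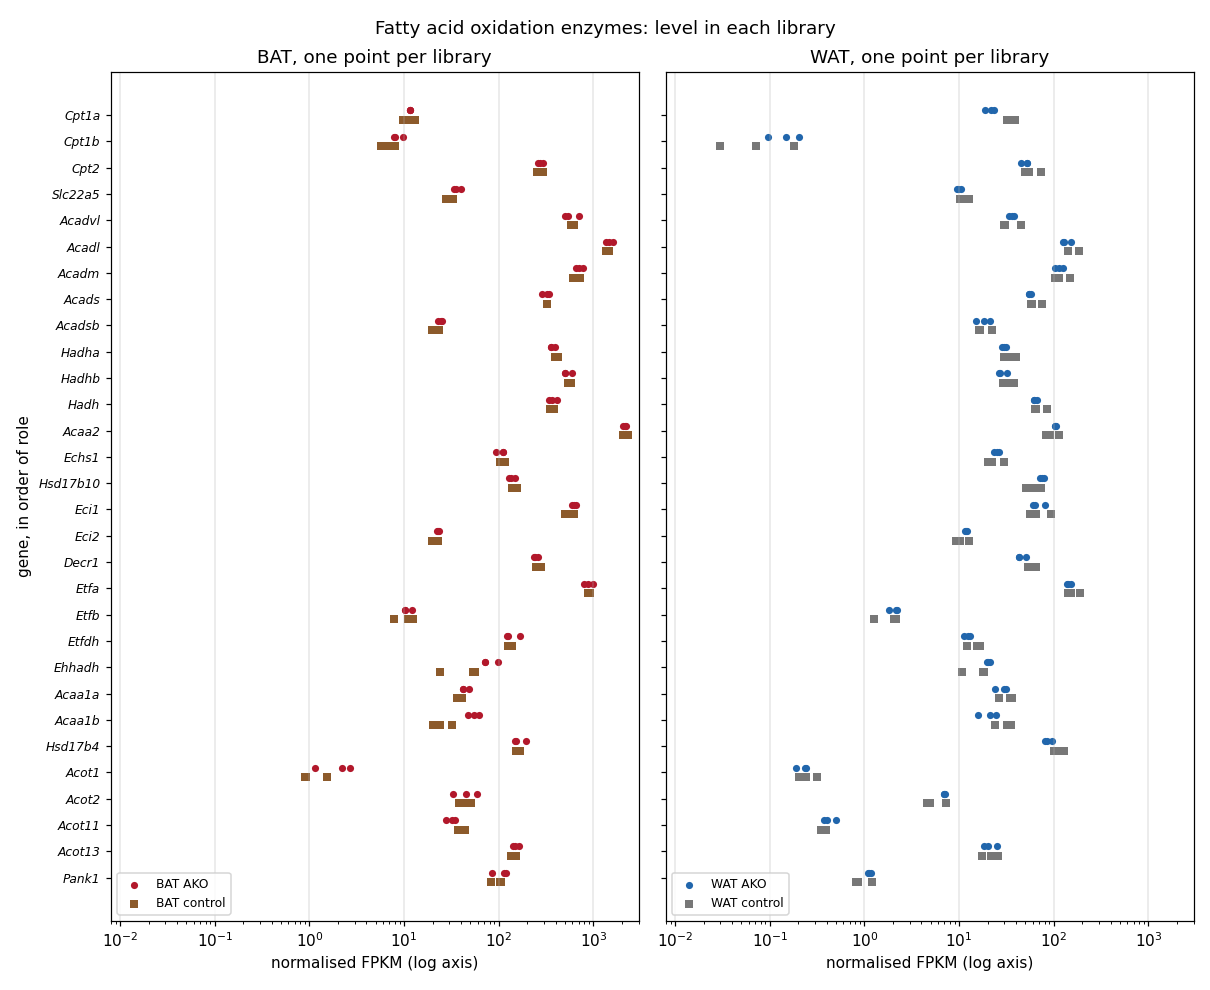
Level of each of the 30 genes in every library, as normalised FPKM on a log axis, with BAT on the left and WAT on the right; circles are AKO libraries and squares are control libraries. Most genes lie further right in BAT, Cpt1a further left, and AKO and control points of a tissue largely overlap.

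BAT was compared with WAT within each genotype, to show which of these genes carry the difference between the fats. In AKO mice 29 of 30 genes were higher in BAT and 1, Cpt1a, was lower (edgeR, adjusted p under 0.05). Over all 15671 genes tested in AKO mice, 28.8% were higher in BAT and 30.5% lower. In control mice 26 of 30 were higher, Cpt1a was again the 1 lower gene, and 3 were not called. The backgrounds there, over 15031 genes, were 24.4% higher and 25.7% lower. The median log2 fold change of the 30 genes was 2.65 in AKO mice and 2.41 in control mice, beside −0.02 and −0.04 for all genes tested. The 26 genes called higher in control mice were all called higher in AKO mice too. These genotypes were tested separately, and the test of the difference between them is given further on. With library totals as the only scaling, the median of all genes moved to −0.60 in AKO mice and −0.40 in control mice, and 27 and 25 members were still called higher, with 1 lower in each genotype. That scaling called 2068 genes higher and 8759 lower in AKO mice, and 2107 higher and 6253 lower in control mice.

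**Figure D2:**
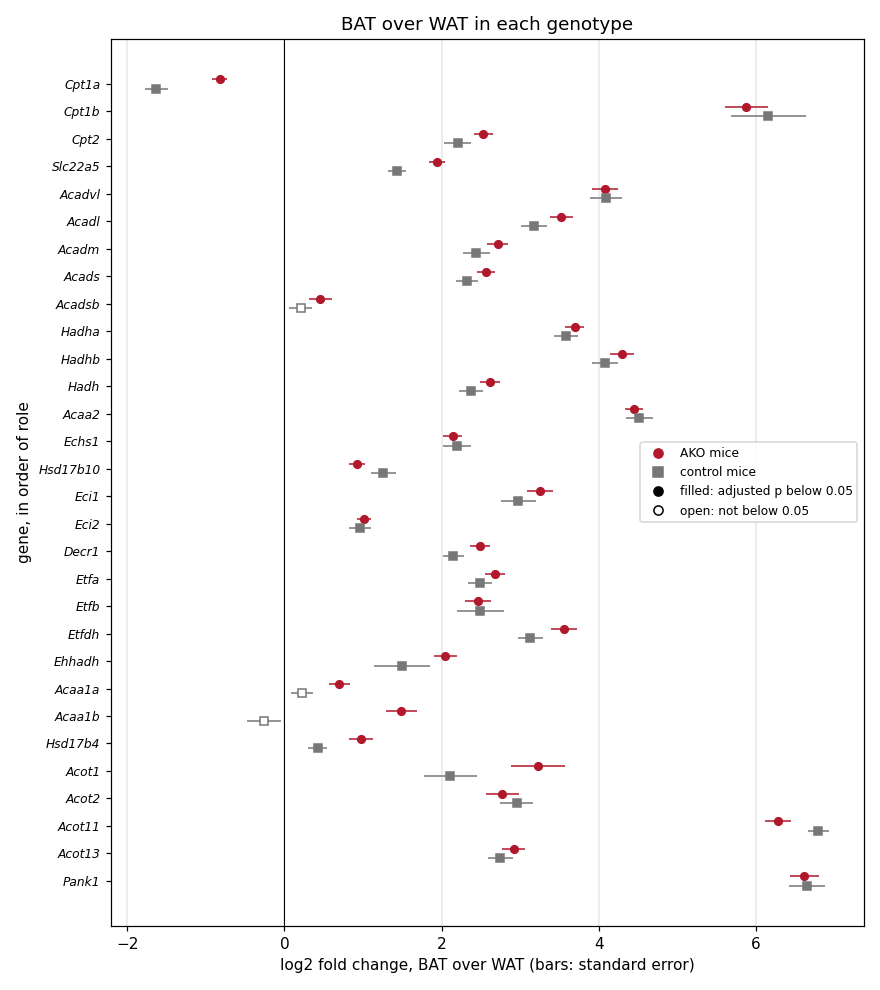
Log2 fold change of BAT over WAT for each gene, with its standard error, in AKO mice (circles) and control mice (squares); filled points had an adjusted p under 0.05. Cpt1a is the only gene with filled points left of 0, and Acot11, Pank1 and Cpt1b lie furthest right.

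The carnitine shuttle held the largest contrast between related genes. Cpt1a and Cpt1b encode the liver and muscle types of carnitine palmitoyltransferase 1, which makes long-chain acylcarnitines at the outer mitochondrial membrane and is the step that malonyl-CoA inhibits. Cpt1a measured 11.5, 11.5 and 11.4 normalised FPKM in BAT AKO, against 23.2, 19.0 and 21.8 in WAT AKO. It measured 9.83, 10.9 and 13.2 in BAT control, against 32.4, 32.7 and 39.0 in WAT control. Every BAT library was below every WAT library, and the log2 fold change was −0.83 in AKO mice (SE 0.094, edgeR adjusted p = 0.000227) and −1.63 in control mice (SE 0.14, adjusted p = 0.000201). Cpt1b went the other way, with 7.99, 7.74 and 9.83 normalised FPKM in BAT AKO against 0.205, 0.148 and 0.0952 in WAT AKO. In control mice it measured 7.96, 6.75 and 5.73 in BAT, against 0.178, 0.0709 and 0.0299 in WAT. Its fold was 58.8 in AKO mice and 71.2 in control mice, but it rests on 16, 10 and 7 counts in the WAT AKO libraries and 12, 5 and 2 in the WAT control libraries. In control mice its log2 fold change was 6.15, but 7.02 without WAT control 1 and 6.90 without the muscle-richest library of each group. Within a library, the ratio of Cpt1b to Cpt1a was 0.743 ± 0.102 in BAT AKO and 0.00699 ± 0.00234 in WAT AKO (SD, n = 3 each). It was 0.622 ± 0.187 in BAT control and 0.00282 ± 0.00244 in WAT control (SD, n = 3 each). These ratios take each gene per length of its model, and the deposited FPKM of Cpt1a implies a model of 4300 bases where GENCODE M21 gives 7642 exon bases. Cpt2, which turns acylcarnitines back into acyl-CoA inside the mitochondrion, was higher in BAT by 2.53 on the log2 scale in AKO mice and by 2.21 in control mice. Slc22a5, the plasma membrane carnitine transporter, was higher by 1.94 in AKO mice and 1.43 in control mice.

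The promoter windows of selected genes are shown to set the sequence beside these values. They span 250 bases before to 50 bases after the RefSeq gene start (GRCm38.p6), read 5′ to 3′ on the gene's strand. Capitals mark a GC box (GGGCGG) or a CCAAT box on either strand. Cpt1a, the gene lower in BAT, lies on the plus strand at chr19:3323051-3323350 and holds 3 GC boxes and 1 CCAAT box:
Cpt1a: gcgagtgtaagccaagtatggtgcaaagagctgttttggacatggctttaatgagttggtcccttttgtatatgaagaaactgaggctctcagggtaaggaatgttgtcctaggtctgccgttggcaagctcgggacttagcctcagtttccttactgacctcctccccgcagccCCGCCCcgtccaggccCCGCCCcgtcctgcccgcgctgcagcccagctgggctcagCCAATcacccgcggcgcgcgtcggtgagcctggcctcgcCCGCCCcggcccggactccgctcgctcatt

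Enzymes of the first oxidation were higher in BAT in order of the chain they take, except for the branched-chain member. Acadvl, Acadl, Acadm and Acads encode the very long, long, medium and short chain acyl-CoA dehydrogenases. Their log2 fold changes in AKO mice were 4.08, 3.52, 2.72 and 2.56, and in control mice 4.09, 3.17, 2.44 and 2.32. Acadsb, which acts on short branched chains made from isoleucine, measured 24.3, 22.5 and 25.2 normalised FPKM in BAT AKO, against 18.2, 21.5 and 15.2 in WAT AKO (log2 0.46, edgeR adjusted p = 0.0304). In control mice it measured 23.4, 20.7 and 19.8 in BAT, against 22.1, 16.2 and 16.7 in WAT, where the libraries overlapped (log2 0.21, adjusted p = 0.282). Its call in AKO mice was lost without WAT AKO 1 (adjusted p = 0.0718), BAT AKO 1 (0.0791) or BAT AKO 3 (0.0847), and under library totals alone its log2 fold change was −0.11 in AKO mice and −0.14 in control mice. For Acadvl, 1151 of its 2686 exon bases are shared with Dvl2 on the opposite strand, and without a stated strand setting reads of such pairs cannot be told apart; Dvl2 had 3860 counts over all libraries and Acadvl 144303.

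The later steps of the mitochondrial cycle are hydration, a further oxidation and thiolysis. Acaa2, the 3-ketoacyl-CoA thiolase that splits off acetyl-CoA, measured 2225, 2058 and 2171 normalised FPKM in BAT AKO, against 105, 104 and 102 in WAT AKO. It measured 2222, 2337 and 2066 in BAT control, against 113, 91.5 and 82.9 in WAT control, and had the highest mean of the 30 genes in BAT of either genotype. In WAT of either genotype Etfa had the highest mean and Acadl the next. The log2 fold change was 4.45 in AKO mice (SE 0.12, edgeR adjusted p = 4e-06) and 4.52 in control mice (SE 0.18, adjusted p = 3.05e-05). Hadha and Hadhb encode the alpha and beta subunits of the mitochondrial trifunctional protein, which carries the last steps for long chains. Hadha measured 354, 352 and 397 normalised FPKM in BAT AKO against 28.4, 31.05 and 29.98 in WAT AKO, and 425, 423 and 389 in BAT control against 39.7, 29.97 and 33.0 in WAT control. Hadhb measured 498, 506 and 596 in BAT AKO against 26.4, 32.0 and 26.9 in WAT AKO, and 566, 573 and 540 in BAT control against 38.5, 28.9 and 31.4 in WAT control. Hadha was 12.9-fold higher in BAT in AKO mice and 12-fold in control mice, and Hadhb 19.6-fold and 16.9-fold. The ratio of Hadhb to Hadha within a library was 1.45 ± 0.0490 in BAT AKO and 0.953 ± 0.0694 in WAT AKO (SD, n = 3 each). It was 1.36 ± 0.0276 in BAT control and 0.962 ± 0.00999 in WAT control (SD, n = 3 each), so every BAT library lay above every WAT library. Gm13910, a processed pseudogene on chromosome 2, matches the Hadhb coding sequence at 99.79% of 1425 bases and held 78641 counts beside 325798 for Hadhb, so the split of reads between them is uncertain. With the counts of the pair added, the log2 fold change of Hadhb was 4.29 in AKO mice and 4.07 in control mice, beside 4.30 and 4.08 without. Hadh, the short chain hydroxyacyl-CoA dehydrogenase, was higher by 2.62 on the log2 scale in AKO mice and 2.37 in control mice, and the enoyl-CoA hydratase Echs1 by 2.14 and 2.2. Hsd17b10, a dehydrogenase of branched-chain breakdown that is also a subunit of mitochondrial RNase P, had the smallest difference of the 6 enzymes, at 0.92 in AKO mice and 1.26 in control mice.

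Hadha and Hadhb lie head to head on chromosome 5, with 85 bases between the 5′ ends of their GENCODE M21 gene models, on the minus and plus strands. The Hadha window (chr5:30154931-30155230, minus strand) ends between the gene models, before that of Hadhb begins, and is shown because the subunits of 1 enzyme complex are encoded side by side there. It holds 1 GC box and no CCAAT box:
Hadha: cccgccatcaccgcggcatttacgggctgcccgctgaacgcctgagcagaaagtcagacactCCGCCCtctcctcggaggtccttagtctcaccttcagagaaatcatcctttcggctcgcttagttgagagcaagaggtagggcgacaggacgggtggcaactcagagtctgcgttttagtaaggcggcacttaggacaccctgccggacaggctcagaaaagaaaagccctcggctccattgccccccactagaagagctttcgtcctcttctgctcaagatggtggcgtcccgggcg

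Genes for unsaturated chains and for electron transfer were all called higher in BAT. Eci1, an isomerase that moves double bonds into the position the cycle needs, was higher by 3.25 on the log2 scale in AKO mice and 2.98 in control mice. Decr1, the dienoyl-CoA reductase of mitochondria, was higher by 2.49 and 2.15, and Eci2, an isomerase found in peroxisomes and mitochondria, by 1.01 and 0.96. Etfa and Etfb encode the subunits of the electron transfer flavoprotein, and Etfdh the oxidoreductase that hands its electrons to ubiquinone. Etfa measured 867, 799 and 998 normalised FPKM in BAT AKO, against 140, 153 and 143 in WAT AKO (log2 2.68; 2.49 in control mice). Etfdh was higher by 3.56 in AKO mice and 3.13 in control mice. Etfb measured only 12.1, 10.2 and 10.3 in BAT AKO, and 617 of its 1164 exon bases are shared with Gm45233, a gene on the same strand with 0 counts in every library. How reads in shared exons were counted is not stated in the labels, so the level of Etfb beside Etfa was not compared; its log2 fold changes were 2.46 in AKO mice and 2.49 in control mice.

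The thioesterase Acot11 and the CoA-synthesising kinase Pank1 had the largest folds of the 30 genes. Thioesterases release free fatty acids from acyl-CoA. Acot11, which is induced by cold in brown fat of mice, measured 32.4, 28 and 34.1 normalised FPKM in BAT AKO, against 0.500, 0.403 and 0.371 in WAT AKO. It measured 41.0, 44.0 and 37.3 in BAT control, against 0.389, 0.355 and 0.350 in WAT control, a 111-fold difference (log2 6.79, SE 0.14, edgeR adjusted p = 8.11e-06) where AKO mice had 77.6-fold. Pank1, the pantothenate kinase that starts CoA synthesis, measured 114, 84.3 and 118 in BAT AKO against 1.17, 1.11 and 1.10 in WAT AKO, and 103, 106 and 81.9 in BAT control against 0.856, 0.815 and 1.22 in WAT control. It was 98.0-fold higher in BAT in AKO mice and 100.2-fold higher in control mice. Acot11 shares 1263 of its 6056 exon bases with Fam151a, a gene on the opposite strand with 4 counts over all libraries. Acot13, a thioesterase bound to mitochondria, was higher by 2.92 on the log2 scale in AKO mice and 2.75 in control mice, and the mitochondrial Acot2 by 2.77 and 2.95. Acot1, its cytosolic relative, was higher by 3.23 and 2.11 from between 15 and 26 counts in WAT libraries. Acot1 and Acot2 are neighbours on chromosome 12, 15616 bases apart, and match at 95.83% of 1223 coding bases, so their counts are uncertain; the sum of the pair was higher by 2.80 in AKO mice and 2.91 in control mice.

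Peroxisomal enzymes had the lowest median difference between the fats of the 7 groups of members, at 1.23 on the log2 scale in AKO mice and 0.32 in control mice. Ehhadh encodes the bifunctional enzyme that hydrates and oxidises chains in peroxisomes, Acaa1a and Acaa1b the peroxisomal thiolases, and Hsd17b4 the bifunctional enzyme for branched chains and bile acid precursors. All 4 were called higher in BAT of AKO mice, at 2.05, 0.70, 1.49 and 0.98 on the log2 scale. In control mice Ehhadh was higher by 1.49 (edgeR adjusted p = 0.0124) and Hsd17b4 by 0.42 (adjusted p = 0.0295), while Acaa1a (0.23, adjusted p = 0.208) and Acaa1b (−0.26, adjusted p = 0.352) were not called. The Ehhadh call in control mice was lost without the library of each group richest in muscle genes (adjusted p = 0.0632). That of Hsd17b4 was lost without WAT control 2 or any 1 BAT control library (adjusted p from 0.0571 to 0.104), with no filter on low counts, without the muscle-richest libraries and under library totals alone (log2 0.07, adjusted p = 0.618). Under library totals alone Acaa1a was −0.12 in control mice and lost its call in AKO mice (0.13, adjusted p = 0.407).

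Acaa1a and Acaa1b lie on chromosome 9 (119339676 to 119350299, plus strand, and 119148023 to 119157093, minus strand, mm10), 182582 bases apart. Their coding sequences match at 96.54% of 1272 aligned bases, with 44 differing. Of 100-base windows, 24.1% are identical, so part of the pair's reads cannot be assigned with certainty. On the opposite strand, Acaa1a shares 290 of its 4414 exon bases with Myd88, and Acaa1b 224 of 1962 with Dlec1. Myd88 had 5273 counts over all libraries and Dlec1 489, beside 31935 for Acaa1a and 12870 for Acaa1b. The stretch of coding bases 453 to 552 is shown because it holds 14 of the differing bases, which are in capitals:
Acaa1a: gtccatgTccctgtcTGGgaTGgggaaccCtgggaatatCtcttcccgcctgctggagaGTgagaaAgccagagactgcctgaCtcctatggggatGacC
Acaa1b: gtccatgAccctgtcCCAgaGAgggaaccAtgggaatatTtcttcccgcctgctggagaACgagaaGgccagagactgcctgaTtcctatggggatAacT

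AKO was then compared with control within each fat, the comparison the study was designed for. In BAT, 30 genes were tested and none was called (edgeR, adjusted p under 0.05), where 0.0771% of 14265 genes were. The log2 fold change was above 0 for 20 members and below for 10, with a median of 0.08 beside 0.01 for all genes. At an unadjusted p under 0.05, 6 were higher in AKO and 1 lower, beside 7% and 6.62% of all genes. DESeq2 called 2 members, Acaa1b and Ehhadh, and 2.19% of the genes it gave an adjusted p, and limma voom called 0 members. AKO and control libraries did not overlap for 5 members, or 16.7%, beside 19.7% of all genes. With library totals as the only scaling, 2 members were higher and 2 lower at an unadjusted p under 0.05. Over all genes 13.9% passed that limit in either direction. Macrophage genes, 11 of 12 with fewer counts in AKO, summed to between 215 and 270 CPM in BAT AKO and between 292 and 389 in BAT control. Endothelial genes, 8 of 10 with fewer counts in AKO, summed to between 1325 and 1634 CPM in BAT AKO and between 1616 and 1870 in BAT control. All 20 skeletal muscle genes had more counts summed over BAT AKO than over BAT control, mainly from BAT AKO 2. They summed to 106, 20692 and 685 CPM in BAT AKO 1, 2 and 3, and to 2217, 113 and 88.8 in BAT control 1, 2 and 3. The part of these cells in the BAT values was not tested.

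**Figure D3:**
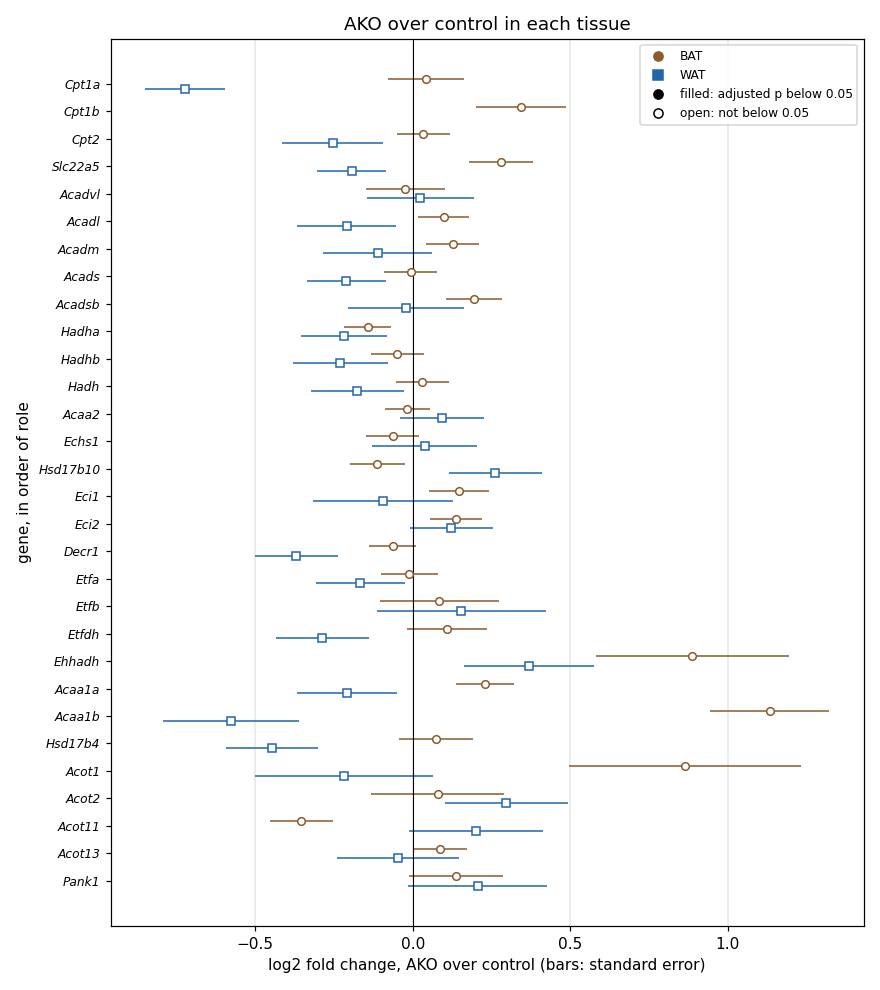
Log2 fold change of AKO over control for each gene, with its standard error, in BAT (circles) and WAT (squares); all points are open, since none had an adjusted p under 0.05. Acaa1b, Ehhadh and Acot1 lie furthest right in BAT and Cpt1a furthest left in WAT; Cpt1b had too few counts to be tested in WAT.

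In BAT the largest values were those of Acaa1b and Ehhadh, both peroxisomal. Acaa1b measured 55.3, 62.4 and 47.7 normalised FPKM in AKO, against 20.2, 32.4 and 24.1 in control. Every AKO library was above every control library (log2 1.13, SE 0.19, edgeR adjusted p = 0.194 and DESeq2 adjusted p = 1.53e-06). Acaa1b was called by edgeR without BAT control 2 (adjusted p = 0.0311) and with no filter on low counts (0.0343). In these settings 0.651% and 0.127% of all genes were called. Acaa1b stayed uncalled in 13 of 16 alternatives, and its adjusted p over all of them ran from 1.53e-06 to 0.582. Acaa1a measured 48.1, 42.3 and 41.7 in AKO, against 40.9, 37.5 and 36.1 in control, also without overlap (log2 0.23, SE 0.091, adjusted p = 0.348). The ratio of Acaa1b to Acaa1a within a library was 1.15, 1.48 and 1.14 in AKO, against 0.494, 0.863 and 0.670 in control. With the counts of this pair added, the log2 fold change was 0.49 (adjusted p = 0.215). Ehhadh measured 71.7, 97.6 and 71.6 in AKO, against 55.5, 53.1 and 24.2 in control, where control 3 was lowest (log2 0.89, SE 0.31, adjusted p = 0.324; DESeq2 adjusted p = 0.0401). Hsd17b4 measured 148, 152 and 195 in AKO, against 168, 153 and 156 in control, and these overlapped (log2 0.07).

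The promoter windows of these genes are shown with the same marks. Acaa1a (chr9:119341044-119341343, plus strand) holds 3 GC boxes and 4 CCAAT boxes, Acaa1b (chr9:119157044-119157343, minus strand) no GC box and 4 CCAAT boxes, of which 2 overlap, and Ehhadh (chr16:21787785-21788084, minus strand) 2 GC boxes and 1 CCAAT box:
Acaa1a: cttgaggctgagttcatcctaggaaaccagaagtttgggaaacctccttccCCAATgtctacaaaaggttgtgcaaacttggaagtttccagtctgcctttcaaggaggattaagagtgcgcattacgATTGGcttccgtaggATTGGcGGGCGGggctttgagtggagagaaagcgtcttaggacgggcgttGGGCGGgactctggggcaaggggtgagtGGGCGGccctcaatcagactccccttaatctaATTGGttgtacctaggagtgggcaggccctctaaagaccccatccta
Acaa1b: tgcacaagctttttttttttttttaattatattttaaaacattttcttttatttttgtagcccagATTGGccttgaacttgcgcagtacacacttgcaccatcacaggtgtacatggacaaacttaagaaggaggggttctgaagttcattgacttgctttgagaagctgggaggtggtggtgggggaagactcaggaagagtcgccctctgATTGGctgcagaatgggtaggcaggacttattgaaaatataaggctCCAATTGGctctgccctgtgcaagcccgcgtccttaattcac
Ehhadh: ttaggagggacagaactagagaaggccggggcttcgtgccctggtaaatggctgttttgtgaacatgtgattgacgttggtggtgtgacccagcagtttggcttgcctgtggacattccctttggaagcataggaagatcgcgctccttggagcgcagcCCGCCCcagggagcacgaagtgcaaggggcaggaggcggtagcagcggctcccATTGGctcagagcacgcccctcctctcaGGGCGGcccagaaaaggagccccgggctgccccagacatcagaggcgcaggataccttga

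Windows were found for 25 of the 30 genes; Decr1, Acot13, Acaa2, Cpt1b and Hsd17b4 had none. Both strands were searched. A GC box (GGGCGG) was present in 19 of 25, beside 38.2% of all 26994 genes with a window, and CCAAT in 14, beside 41.0%. The nuclear receptor core AGGTCA, which is also part of the estrogen-related receptor motif TCAAGGTCA, was present in 4 (Acadm, Acadvl, Cpt1a and Echs1), beside 18.1%. TCAAGGTCA itself was in 0 windows (0.467% of all genes), and so was the direct repeat bound by PPAR alpha, searched as AGGNCA followed by the same letters after 1 spacer base (0.452%). The NRF1 motif, GCGCA and GCGC around 1 free base, was in 3 (5.18%), TATAAA in 1 (15.7%), CACGTG in 1 (8.09%) and TGACGTCA in 0 (2.03%). These matches describe the letters of the windows and were not tested.

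Outside the peroxisome, Slc22a5 measured 40.0, 33.6 and 35.4 normalised FPKM in BAT AKO, against 32.5, 27.5 and 31.1 in BAT control, without overlap (log2 0.28, SE 0.1, edgeR adjusted p = 0.331). Acot11 was the 1 member whose BAT AKO libraries all lay below the controls, at 32.4, 28 and 34.1 against 41.0, 44.0 and 37.3 (log2 −0.35, SE 0.1, adjusted p = 0.274). Cpt1b measured 7.99, 7.74 and 9.83 in AKO, against 7.96, 6.75 and 5.73 in control (log2 0.34, adjusted p = 0.36). BAT AKO 2, which held 2.07% muscle counts, had the lowest Cpt1b of the AKO libraries, and the part of muscle in the Cpt1b values was not tested. Acot1 measured 1.14, 2.66 and 2.21 in AKO, against 0.894, 1.55 and 0.911 in control (log2 0.86, SE 0.37, adjusted p = 0.367). The other 23 members, Hsd17b4 among them, lay between −0.14 and 0.19 on the log2 scale, with overlapping libraries and adjusted p of 0.394 or more. Among them were Acaa2 (−0.02), Hadha (−0.14), Hadhb (−0.05), Acadl (0.10) and Acadm (0.13), abundant enzymes of the mitochondrial cycle.

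In WAT, 29 genes passed the count filter, Cpt1b did not, and none was called, where 0.0189% of 15915 genes were. The log2 fold change was above 0 for 10 members and below for 19, with a median of −0.17 beside 0.00 for all genes. At an unadjusted p under 0.05, 4 were lower and 0 higher, beside 12% and 10.6% of all genes. DESeq2 called 2 members lower, Cpt1a and Hsd17b4, and 10.6% of the genes it gave an adjusted p, and limma voom called 0 members. AKO and control libraries did not overlap for 5 members, or 17.2%, beside 30.4% of all genes. WAT control 1, which held 1.5% muscle counts, was the highest control for 25 of the 30 genes. Without it the median of the members was −0.04, with 14 above and 15 below 0. Without WAT AKO 2, which held 2.65% muscle counts, the median was −0.20, with 10 above and 20 below 0. Without the muscle-richest library of each group it was −0.08, with 10 above and 19 below. Leaving out any other single library gave a median between −0.25 and −0.10. Under library totals alone the median of the members was −0.02 with the median of all genes at 0.14. The part of muscle transcripts in these values was not tested.

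Cpt1a had the largest WAT value, at 23.2, 19.0 and 21.8 normalised FPKM in AKO against 32.4, 32.7 and 39.0 in control. The libraries did not overlap (log2 −0.72, SE 0.13, edgeR adjusted p = 0.0801; DESeq2 adjusted p = 9.96e-05). It was called without WAT control 2 (adjusted p = 0.0273), with no filter on low counts (0.0482) and in 1 fit of all 12 libraries (0.0143). In these settings 10.1%, 0.927% and 6.28% of all genes were called. The adjusted p of Cpt1a over all alternatives ran from 9.96e-05 to 0.311. Without WAT control 1 or any other library, its log2 fold change stayed between −0.80 and −0.63. Markers of other cells were read beside this comparison. All 11 B lymphocyte genes had more counts summed over the AKO libraries than over the controls. Ms4a1, Blk and Cr2 were among those at 0 in at least 1 of the 12 libraries, BAT included. All 12 T and NK lymphocyte genes also had more counts in AKO, and summed to between 316 and 599 CPM in AKO and between 18.1 and 331 in control. Macrophage genes, 10 of 12 with fewer counts in AKO, summed to between 1264 and 1602 CPM in AKO and between 1489 and 1953 in control. Endothelial genes, 9 of 10 with fewer counts in AKO, summed to between 978 and 1491 CPM in AKO and between 1288 and 2489 in control. All 20 skeletal muscle genes had more counts summed over AKO than over control, mainly from WAT AKO 2. They summed to 213, 26528 and 295 CPM in WAT AKO 1, 2 and 3, and to 15026, 3883 and 253 in WAT control 1, 2 and 3. The part of these cells in the WAT values was not tested. Hsd17b4 measured 85.3, 96.9 and 81.1 in AKO, against 128, 102 and 124 in control (log2 −0.45, SE 0.15, adjusted p = 0.16; DESeq2 adjusted p = 0.0381). Decr1 measured 43.1, 50.8 and 43.4 in AKO, against 65.8, 53.7 and 55.7 in control (log2 −0.37, adjusted p = 0.18). Acads measured 54.9, 57.9 and 55.2 in AKO, against 75.0, 58.1 and 58.9 in control, with 57.9 and 58.1 as the nearest values (log2 −0.21, adjusted p = 0.351). Ehhadh was the 1 member with every AKO library above the controls, at 21.2, 19.9 and 20.1 against 18.5, 17.7 and 10.6 (log2 0.37, SE 0.21, adjusted p = 0.324). Acaa1b measured 21.3, 24.7 and 15.7 in AKO, against 32.2, 35.1 and 23.8 in control, where AKO 2 lay above control 3 (log2 −0.58, SE 0.22, adjusted p = 0.193). The other 23 tested members lay between −0.29 and 0.30, with overlapping libraries and adjusted p of 0.298 or more.

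**Figure D4:**
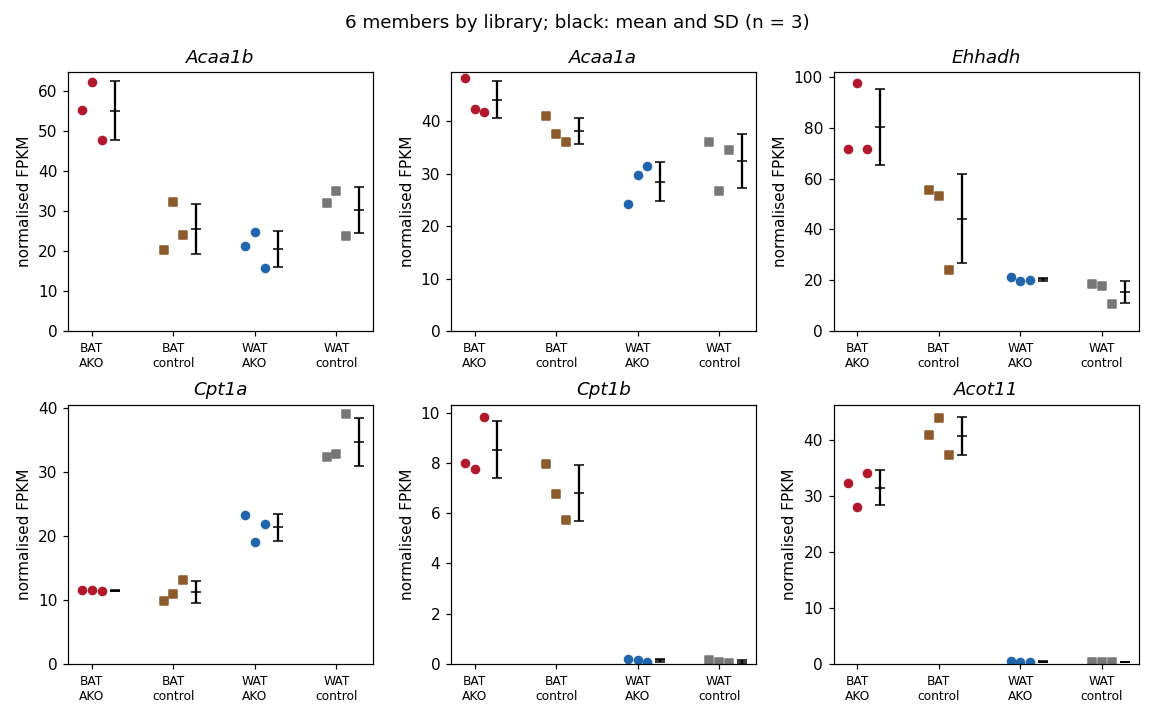
Normalised FPKM of 6 genes in each library, with BAT AKO, BAT control, WAT AKO and WAT control from left to right; black marks are the mean and SD of 3 libraries. Acaa1b stands highest in BAT AKO, where all 3 libraries are at 47.7 or more, and all 3 WAT AKO libraries of Cpt1a lie below the WAT controls.

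The difference between the AKO effects, BAT minus WAT, was tested on all 12 libraries. No member was called by edgeR at its main settings, without a block, where 0.275% of 16391 genes were. At an unadjusted p under 0.05, 4 were higher and 2 lower, beside 8.34% and 10.1% of all genes. DESeq2 called 3 members, Acaa1b, Cpt1a and Slc22a5, and 7.22% of the genes it gave an adjusted p, and limma voom called 0. Replicates with the same number in BAT and WAT of a genotype had correlated deviations, above 0.1 in every pair, so the number was also fitted as a block. In each genotype the muscle-richest library bore the same number in both fats, AKO 2 and control 1. Those pairs had the highest same-number correlations, at 0.676 and 0.517, and the part of muscle in them was not tested. In AKO mice this pairing was less clear: number 3 correlated at 0.136 with itself, while numbers 1 and 3 correlated at 0.431 and 0.236 across the fats. In the fit with the block 1.59% of genes were called, and 2 members, Acaa1b and Cpt1a. For Acaa1b the difference was 1.69 with the block (SE 0.2, edgeR adjusted p = 0.0125) and 1.67 without (SE 0.31, adjusted p = 0.0572), from 1.13 in BAT and −0.58 in WAT. Cpt1a had 0.73 with the block (SE 0.14, adjusted p = 0.0459) and 0.72 without (SE 0.17, adjusted p = 0.0939), from 0.04 in BAT and −0.72 in WAT. The fitted values of Acaa1b were thus opposite in sign in the 2 fats, though neither was called by edgeR on its own. Acot11 (−0.59, adjusted p = 0.137), Slc22a5 (0.43, adjusted p = 0.176), Hsd17b4 (0.48, adjusted p = 0.21) and Hsd17b10 (−0.41, adjusted p = 0.253) had unadjusted p under 0.05 and were not called.

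A further 79 genes of fatty acid and ketone metabolism were read beside the members. Of the 73 tested between the fats in AKO mice, 56 were higher in BAT and 9 lower, beside 28.8% and 30.5% of all genes. In control mice 50 of 73 were higher and 8 lower, beside 24.4% and 25.7%. Nuclear receptors and coactivators that act on these genes were among them: Ppara was higher by 5.88 on the log2 scale in AKO mice and 5.19 in control mice, the coactivator Ppargc1b by 4.51 and 5.22, and Ppargc1a by 3.40 and 3.00. Fabp3, a fatty acid binding protein, had the largest difference, at 8.16 in AKO mice and 8.18 in control mice. Slc25a20, the carnitine-acylcarnitine carrier that completes the shuttle, was higher by 3.63 and 3.08. Acacb and Acaca, which make malonyl-CoA, and Mlycd, which removes it, were all higher, at 2.60, 2.46 and 1.92 in AKO mice and 3.41, 2.88 and 1.93 in control mice. Of 10 nuclear receptors and coactivators, 7 were called higher in BAT and 2 lower in each genotype. Nrip1, a corepressor, was 1 of the lower, with log2 fold changes of −2.09 in AKO mice and −2.39 in control mice. The lowest values of the genes tested, −4.49 in AKO mice and −3.77 in control mice, were among the ketone body enzymes.

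Between AKO and control none of these genes was called by edgeR in either fat, of 72 tested in BAT and 71 in WAT. DESeq2 called 6 higher and 0 lower in BAT, where it called 2.19% of the genes it gave an adjusted p, and 6 higher and 1 lower in WAT, where it called 10.6%. limma voom called 0 in each. At an unadjusted p under 0.05, 18 were higher and 1 lower in BAT AKO, beside 7% and 6.62% of all genes. In WAT AKO 9 were higher and 8 lower, beside 10.6% and 12% of all genes, so the WAT counts were near the background. The smallest p in BAT belonged to the peroxisomal reductase Decr2 (log2 0.45, edgeR adjusted p = 0.225), the acyl-CoA synthetase Acsl3 (1.01, 0.225), the nuclear receptor Ppard (−0.35, 0.247), the pantothenate kinase Pank3 (0.63, 0.255) and Ppargc1a (0.63, 0.27). In WAT the smallest p included those of Slc25a29 (0.94, edgeR adjusted p = 0.0945), a mitochondrial carrier, the glutaryl-CoA dehydrogenase Gcdh (0.54, 0.0975), the acetyl-CoA synthetase Acss1 (0.61, 0.0983) and the medium chain synthetase Acsm5 (1.11, 0.122). For the difference of the AKO effects, of 76 tested and none called by edgeR or limma voom (DESeq2 called 9 higher and 2 lower, and 7.22% of the genes it gave an adjusted p), the smallest p belonged to the peroxisomal transporter Abcd3 (0.95, edgeR adjusted p = 0.0939), Pank3 (1.08, 0.0943), Acsl3 (1.32, 0.0981), Decr2 (0.51, 0.111) and the estrogen-related receptor Esrrg (2.35, 0.116).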

How the data were processed

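The 30 members and every gene list were chosen with earlier results of these data known. The authors deposited raw read counts for each Ensembl gene. The submitters' processing notes name HTSeq 0.6.0, HISAT2 2.1.0 and Bowtie2 2.2.3 and the build mm10. They give no role for these tools, and neither the annotation used nor a strand setting is stated. The deposited FPKM are the same counts per gene length and library total (largest relative deviation 1.75e-08 over genes with at least 20 counts). They were divided here by TMM factors over the 12 libraries.

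Genes were tested on counts with edgeR 4.0.16 in R 4.3.3 (quasi-likelihood F-test, TMM, filterByExpr at its settings of count 10 and total 15), with Benjamini-Hochberg adjustment over all genes tested. Standard errors were derived from the log2 fold change and its F and are approximate. Each comparison used the libraries of its own groups, and the difference of the AKO effects used all 12. The tests were run on simulated counts first. Of genes changed by 1 on the log2 scale, edgeR recovered 19% for WAT AKO against control and 50% for BAT AKO against control. For the difference of the AKO effects it recovered 20%. At a change of 2 these were 72%, 96% and 64%, so a gene that was not called may still have changed. Unchanged genes that were called numbered 12 for WAT, 4 for BAT and 3 for the difference of the AKO effects. Between the fats, 44% were recovered in AKO mice and 36% in control mice at a change of 1. There 17 and 11 unchanged genes were called. DESeq2 1.42.0, limma voom (limma 3.58.1) and other settings were alternatives. Summing near-identical copies and leaving out genes of the mitochondrial genome were added after seeing the data. Between replicates, chi-square per degree of freedom was 16.5 to 83.4, above sampling noise, so no library was taken for a copy of another.

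Replicate numbers come from the sample titles. Deviations of same-numbered BAT and WAT libraries correlated at 0.136 to 0.676 in AKO mice and 0.238 to 0.517 in control mice, each above the limit of 0.1 for pairing, though 2 of 3 AKO libraries of each fat, against 3 of 3 control libraries, correlated best with their own number. Coordinates come from GENCODE M21, promoter windows from RefSeq (GRCm38.p6), and copies were found by blastn on coding sequence. All members are named; of the 79 other genes those called, or the 5 with the smallest p where fewer than 5 were called, could be named, examples of the called ones are given, and some named by this rule are not reported here.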

Additional observations from a re-analysis of the deposited data

Results flagged for a closer look

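In 2 genes the AKO effect differed between the fats by a test of the difference itself, with the replicate number as a block. Over all genes 1.59% were called with the block, beside 0.275% without it. Acaa1b, a peroxisomal thiolase, had a difference of 1.69 on the log2 scale, BAT minus WAT (SE 0.2, edgeR adjusted p = 0.0125). Cpt1a, the liver type of carnitine palmitoyltransferase 1, had 0.73 (SE 0.14, adjusted p = 0.0459). In BAT, Acaa1b was higher in 3 of 3 AKO libraries than in every control library, and in WAT Cpt1a was lower in 3 of 3. Without the block, edgeR called neither difference at its main settings, but called Acaa1b with no filter on low counts (adjusted p = 0.0151). It called both without WAT control 2 (adjusted p = 0.0239 for Acaa1b and 0.0412 for Cpt1a), where 5.5% of all genes were called. Without the muscle-richest library of each group, and without the block, edgeR called 0 members and 0 genes. DESeq2 called both (adjusted p = 3.55e-05 and 0.00195) and limma voom neither. In AKO mice 2 of 3 libraries of each fat correlated best with their own replicate number in the other fat. In each genotype the muscle-richest library had the same number in both fats, and the part of muscle in the pairing was not tested.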

How the results depend on the processing

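The counts of members called between the fats, 29 higher and 1 lower in AKO mice and 26 higher and 1 lower in control mice, stayed within 1.5 times under every alternative run. For BAT AKO against control, the count of 0 became 1 with no filter on low counts and 2 with DESeq2, and ran from 0 to 1 with each library left out. For WAT AKO against control it became 1 with no filter, 2 with DESeq2, 1 in a fit of all 12 libraries and 1 at an adjusted p under 0.1, and ran from 0 to 1 with each library left out. For the difference of the AKO effects it became 1 with no filter, 3 with DESeq2, 2 with the replicate block and 2 at an adjusted p under 0.1, and ran from 0 to 2 with each library left out. The cause was not tested.

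Over all genes, the 11 called in BAT became 33 with no filter, 280 with DESeq2, 7 with a mean of at least 2 CPM, 2 without the muscle-richest libraries and 1 with the replicate block, and ran from 0 to 95 with each library left out. The 3 called in WAT became 277 with no filter, 2 with a mean of at least 2 CPM, 1679 with DESeq2, 1 with limma voom, 1030 in a fit of all 12 libraries, 446 at an adjusted p under 0.1, 0 without the muscle-richest libraries and 0 with the replicate block. They ran from 1 to 1649 with each library left out, the highest without WAT control 2. The 45 of the difference of the AKO effects became 132 with no filter, 22 with library totals alone, 973 with DESeq2, 24 with limma voom, 329 at an adjusted p under 0.1, 261 with the replicate block and 0 without the muscle-richest libraries, and ran from 2 to 923 with each library left out. Between the fats in control mice, 7524 became 4763 without the muscle-richest libraries.

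Within a fat, same-numbered AKO and control libraries did not deviate together (correlations from −0.62 to 0.11 in BAT and from −0.47 to 0.22 in WAT), so the numbers do not pair them. The replicate block called 0 members there, and between the fats it changed no call of a member. Single members were followed under alternatives in 79 results. These were every member between the fats and, in the AKO comparisons, members with an unadjusted p under 0.05 or non-overlapping libraries. Of their 1425 values, 1387 kept their direction and side of the threshold, 23 passed it anew, 12 lost it and 3 changed sign. Those 3 came with library totals alone: Acadsb at −0.11 in AKO mice and −0.14 in control mice, and Acaa1a at −0.12 in control mice. Members outside these results did change sign. In WAT, 10 members were above 0 at the main settings and 14 under library totals alone. In BAT, 20 were above 0 at the main settings and 15 without BAT AKO 3. Depth limits Cpt1b in WAT, with 16 counts or fewer per library.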
